A study of Equus caballus with 20 samples.

Results

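The oviduct on the side of ovulation was compared with the oviduct on the other side in mares, with pregnant and cyclic animals averaged. The comparison took in all 20 of the 20 libraries of the study: 10 ipsilateral, from the oviduct beside the ovary that had ovulated, and 10 contralateral. Each side holds 5 libraries of pregnant and 5 of cyclic (not pregnant) mares, named here by group and replicate number as PI (pregnant ipsilateral), PC (pregnant contralateral), CI (cyclic ipsilateral) and CC (cyclic contralateral). All 4 groups share the breed, Warmblood, the time, 4 days after ovulation, and the material, epithelial cells from the ampullary-isthmic junction, the border between the wide ampulla of the tube and the narrow isthmus below it. RNA was sequenced and read counts per gene were normalized with trimmed means of M-values (TMM), which scales each library by 1 factor. The table lists 26740 features, and 14692 of them were kept, those above 1 CPM of the column total in at least 5 of the 20 columns. The quantity reported is the mean of the PI minus PC and the CI minus CC difference on a log2 scale, positive where the ipsilateral side was higher, called the side difference here. The labels speak of biological replicates and do not say whether an ipsilateral and a contralateral library of 1 status and number came from 1 mare, nor whether the replicates were separate animals, so p-values measure only the spread between these samples. Counts over the 10 numbers set the ipsilateral against the contralateral library of 1 status and number and are descriptive. In cyclic numbers 3 and 4 the deviations of these libraries from their group means correlated at only 0.02 and −0.04, so they may not be pairs.

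The oviduct takes up the ovulated oocyte, is the site of fertilization and carries the early embryo to the uterus. Its epithelium holds multiciliated cells, which move fluid and the embryo, and secretory cells, which make the fluid around it. The ipsilateral oviduct lies next to the corpus luteum, the progesterone-secreting gland that forms from the ovulated follicle, and receives the oocyte, whereas the contralateral oviduct does not, while both are reached by the same circulating hormones. In the horse the embryo itself secretes prostaglandin E2, which relaxes oviduct smooth muscle and lets the embryo pass, while unfertilized oocytes are usually retained.

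The recovered read totals ran from 2795168 to 10126484 on the ipsilateral side (median 5775130) and from 3407805 to 10015464 on the contralateral side (median 5741124). A count of 0 allows up to 3 reads, 1.75 to 7.03 normalized counts depending on the library, and this floor covers counting error only. FOXJ1, the master regulator of motile cilia, lay between 2774 and 6344 normalized counts over the 20 libraries, and the epithelial adhesion gene EPCAM between 1115 and 2413. Markers of other cells were present too: PTPRC, the pan-leukocyte phosphatase, lay between 101 and 704 and the collagen chain COL1A1 between 75.9 and 1450 normalized counts. The defining oviduct glycoprotein OVGP1 was near the floor, from 0 to 15.4 normalized counts. A single unnamed feature, ENSECAG00000014226, dominated some libraries and took over 10% of the reads in PI1 (14.4%), PI4 (27.8%) and CI3 (15.4%), all ipsilateral, and at most 9.75% in a contralateral library. Over all libraries its log2 level differed between sides by 1.05 (exact permutation test within status, 63504 arrangements, 2-sided, p = 0.198, adjusted over 3 library measures 0.594). The log2 read total differed by −0.11 (exact permutation p = 0.642, adjusted 0.747) and the share of mitochondrial reads by 0.33 percentage points (exact permutation p = 0.747, adjusted 0.747). Unlike the model used for the features, these 3 tests took no account of the replicate number.

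No feature differed between the sides past the threshold. With limma and Benjamini-Hochberg adjustment over 14692 features, 0 (0%) had an adjusted p under 0.05, and the smallest adjusted p was 0.876. At an unadjusted p under 0.05 there were 437 features (2.97%), of which 189 (1.29%) were higher and 248 (1.69%) lower ipsilaterally. The other tools gave 0 calls as well, with 362 features at an unadjusted p under 0.05 by edgeR (162 higher, 200 lower) and 390 by DESeq2 (221 higher, 169 lower), both on the recovered reads. No feature had all 10 ipsilateral libraries above or below all 10 contralateral ones (0%).

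The side differences were small over the whole transcriptome. The median was −0.01, with 7039 features higher and 7653 lower, and 95% of features lay between −0.32 and 0.43. The 95% interval of the difference stayed within 2-fold in both directions for 14163 features (96.4%) and within 1.5-fold for 10924 (74.4%). Among the 8332 features with a mean of at least 100 normalized counts these were 8272 (99.3%) and 7485 (89.8%). A p that misses the threshold does not show that the sides are alike. The intervals hold for each feature singly under this model in these libraries and were not widened for the number of features. The model treats libraries of 1 status and number as a block (correlation 0.39), although equal numbers may not mark pairs. Without that block 100 features had an unadjusted p under 0.05 in limma, and interval shares for that fit are not given here. Only 1 feature exceeded a log2 difference of 1, the unnamed ENSECAG00000014226 with the largest share of reads (1.05), and 107 exceeded 1.5-fold, at a median level of 10.5 normalized counts, close to the floor.

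Neither status on its own gave a call. In pregnant mares 0 features (0%) passed the adjusted threshold in limma (smallest adjusted p 0.444), with 455 (3.1%) at an unadjusted p under 0.05. In cyclic mares there were again 0 (0%; smallest adjusted p 1), with 214 (1.46%) at an unadjusted p under 0.05. The interaction, which tests whether the side difference differs between the statuses, gave 0 (0%; smallest adjusted p 1), with 225 (1.53%) unadjusted. The statuses share no library, and across the 14692 features their side differences had a Pearson r of 0.19 and a Spearman rho of 0.25, with the same sign in 8850 (60.2%); features are not independent replicates. Of the 455 features with a small unadjusted p in pregnant mares 287 (63.1%) had the same sign in cyclic mares, where their median size in that direction was 0.06 against 0.55 in pregnant mares. Of these, 5 also had an unadjusted p under 0.05 in cyclic mares with the same sign and 7 with the opposite sign.

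**Figure D1:**
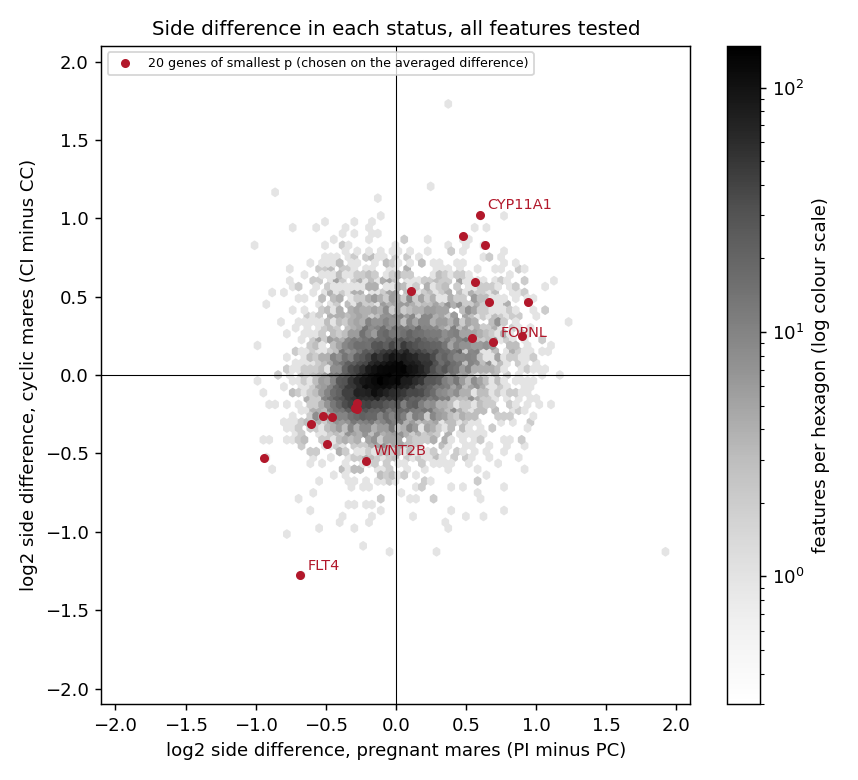
Log2 side difference of each of the 14692 features in pregnant mares (x axis) and in cyclic mares (y axis), as hexagons shaded by the number of features on a log scale, with the 20 genes of smallest p in red. The cloud is centred near 0 with a Pearson r of 0.19, and the red genes share their sign in both statuses because they were picked on the average of the axes.

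The 20 genes named next are the 10 with the smallest p in each direction; all had an adjusted p of 0.876 in limma. FOPNL, a centriolar satellite protein needed to build cilia, had the smallest p. Its lowest, median and highest values were 48.6, 57.8 and 72.6 normalized counts in the ipsilateral and 27.3, 42.6 and 53.4 in the contralateral libraries. The side difference was 0.45 ± 0.09 (SE; limma unadjusted p = 8.02e-05), higher in 9 of the 10 numbers. The sides overlap only through the cyclic mares: the 5 PI libraries lay between 48.6 and 72.6 and the 5 PC libraries between 27.3 and 41.0, whereas CI ran from 50.4 to 72.0 and CC from 44.1 to 53.4. The difference was 0.69 in pregnant and 0.21 in cyclic mares (interaction in limma, unadjusted p = 0.0164, adjusted 1).

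UPF3B, a factor of nonsense-mediated mRNA decay, ran from 81.7 over a median of 123 to 176 normalized counts ipsilaterally and from 55.6 over 88.6 to 123 contralaterally. The ranges overlap widely, and each ipsilateral library was above the contralateral one of its number, 10 of 10, with a difference of 0.39 ± 0.11 (SE). SAPCD1, a protein with a suppressor APC domain, was also higher in 10 of 10 numbers (0.57 ± 0.15), at 13.7, 20.3 and 39.8 against 8.18, 12.8 and 26.9 normalized counts (lowest, median, highest). Over all features, 7 (0.0476%) were higher in every number and 3 (0.0204%) lower in every number. Whether these counts exceed chance was not tested, and UPF3B, SAPCD1 and WNT2B had been picked for a small p on the same differences. The first 7 were UPF3B, SAPCD1, the histone acetylation cofactor JADE3 (0.28), the zinc finger gene ZNF135 (0.18), the orphan nuclear receptor NR4A3 (0.41) and the unnamed ENSECAG00000000822 (0.38) and ENSECAG00000003494 (0.60). The other 3 were the ligand WNT2B (−0.38), the adhesion molecule L1CAM (−0.38) and RPL7_2 (−0.60), an extra copy of a ribosomal protein gene, uncertain because near-identical copies may share reads.

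ELAVL2, an RNA-binding protein known from neurons, had 68.0, 96.0 and 255 normalized counts ipsilaterally and 35.5, 77.3 and 153 contralaterally, a difference of 0.58 ± 0.19 (SE) in 9 of 10 numbers. JPH1, a junctophilin that ties the endoplasmic reticulum to the cell membrane, differed by 0.32 ± 0.10. The JPH1 difference was 0.11 in pregnant mares (higher in 3 of 5 numbers) and 0.54 in cyclic mares (5 of 5). The other 5 higher genes lay near the counting floor, with means under 15 normalized counts on both sides. CYP11A1, which makes pregnenolone from cholesterol as the first step of steroid synthesis, is among them. Its lowest, median and highest values were 3.89, 10.3 and 18.7 ipsilaterally and 0, 3.39 and 11.8 contralaterally, from 0 to 21 reads a library, and the difference was 0.81 ± 0.25 (SE), higher in 8 of 10 numbers. PI1, PI3, PI5, CI3 and CI5 held the 5 highest values, between 13.9 and 18.7, whereas PI2 (3.89) was below PC2 (9.43) and CI4 (4.80) below CC4 (6.68). The remaining 4 were the keratin KRT39 (0.57), the T cell costimulatory receptor TNFRSF4 (0.68), the kinase PAK7 (0.70) and the pantetheinase VNN1 (0.73).

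Among the genes lower ipsilaterally, WNT2B, a secreted WNT ligand, ran from 34.2 over 48.2 to 63.7 normalized counts in the ipsilateral and from 47.7 over 62.0 to 83.0 in the contralateral libraries. It was lower in 10 of 10 numbers, by −0.38 ± 0.11 (SE), with −0.21 in pregnant and −0.55 in cyclic mares. CI3 (34.2) was the lowest library and CC3 (80.6) and CC1 (83.0) the highest, and the ranges of the sides overlap. PPIL1, a proline isomerase of the spliceosome, was lower in 9 of 10 numbers (−0.39 ± 0.11), at 45, 60.5 and 93.6 against 63.5, 87.5 and 97.1 normalized counts. BCKDHB, a subunit of the mitochondrial enzyme that breaks down branched-chain amino acids, had the values 142, 152 and 210 against 170, 198 and 226, a difference of −0.25 ± 0.08 (SE). In BCKDHB the 4 libraries PI1, PI3, PI4 and PI5 (142 to 150) lay below all contralateral libraries, as did CI3 (149) and CI5 (153).

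LPCAT2, an acyltransferase that makes platelet-activating factor, differed by −0.46 ± 0.13 (SE; 197 against 262 normalized counts on average). BCS1L, an assembly factor of respiratory complex III, differed by −0.46 ± 0.14 (53.9 against 76.0). The lysosomal peptide and histidine transporter SLC15A4 differed by −0.36 ± 0.11, the spliceosome protein SNRNP27 by −0.25 ± 0.08 and C6orf89 by −0.23 ± 0.07. DFNA5, a gasdermin that forms membrane pores, was at 8.15 against 15.1 normalized counts (−0.74 ± 0.21) and was lower in 9 of 10 numbers. It had from 2 to 47 reads a library, so some of its values also lay near the counting floor. The last of the lower genes, FLT4, is described with the endothelial markers. All 20 genes kept their sign in each of the alternative settings that gave them a value (34 or 35 per gene), and their smallest adjusted p over those settings was 0.123. These genes were picked for a small p on the same libraries, so the kept sign is not separate evidence.

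**Figure D2:**
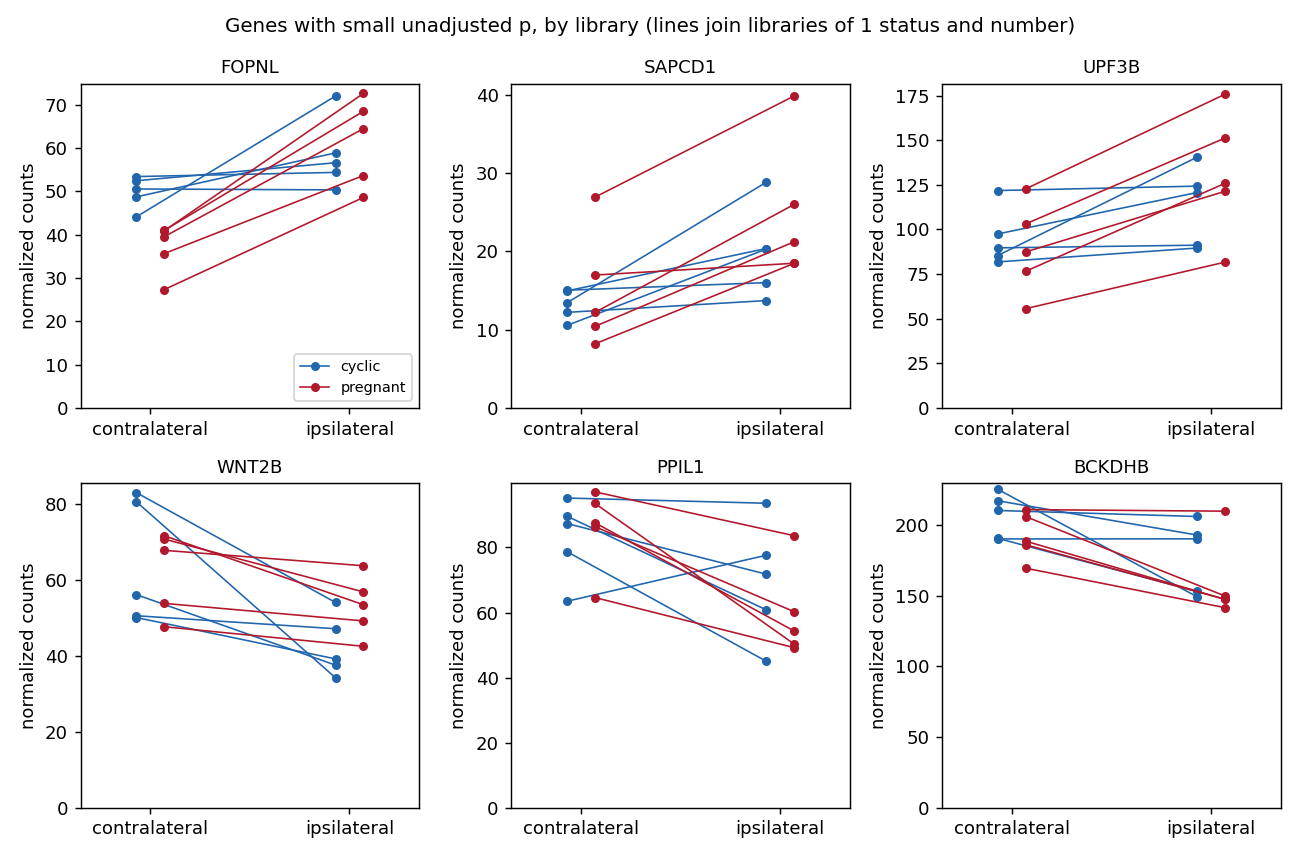
Normalized counts of 6 of the genes with the smallest p in each library, contralateral on the left and ipsilateral on the right of each panel, with lines joining libraries of 1 status and number (red, pregnant; blue, cyclic). The UPF3B, SAPCD1 and WNT2B lines all run in 1 direction, and in FOPNL the 5 pregnant lines are steeper than 4 of the 5 cyclic ones.

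Steroid hormone signalling was described by 21 kept genes for receptors, their chaperones, cofactors and steroid-converting enzymes. Of these 11 were higher and 10 lower ipsilaterally, with a median of 0.00 against −0.01 over all features, and 1 had an unadjusted p under 0.05. ESR1, the estrogen receptor alpha, had lowest, median and highest values of 1069, 2194 and 2684 normalized counts ipsilaterally and 1287, 2206 and 3652 contralaterally. Its difference was −0.11 ± 0.13 (SE), with a 95% interval of −0.39 to 0.16; it was −0.05 without PI1 and −0.23 without CC4. NR3C1, the glucocorticoid receptor, ran from 428 over 549 to 685 against 560 over 614 to 663, a difference of −0.15 ± 0.07 (limma unadjusted p = 0.0503, adjusted p = 0.876), and was lower in 7 of 10 numbers. FKBP5, a chaperone that progestins and glucocorticoids induce, was at 999.8 ± 268 against 895 ± 256 normalized counts (SD, n = 10), higher in 9 of 10 numbers with a difference of 0.17 ± 0.12 (SE), which was 0.08 without PC1. The 1 member with a small unadjusted p was 11-HSD2, the enzyme that inactivates cortisol, at 10.4 against 16.5 normalized counts (−0.48 ± 0.22, limma unadjusted p = 0.0438, adjusted p = 0.876), a difference of −0.31 without CI3. Values for the progesterone receptor gene are not reported here.

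Genes that these hormones are known to induce gave medians of −0.09 for progestins and glucocorticoids (6 higher and 13 lower of 19) and −0.02 for estrogens (6 and 10 of 16). The progestin and glucocorticoid median was −0.0041 without CI3 and 0.05 without PI1, PI4 and CI3, so its direction was not fixed. Ovarian cell markers were examined because of the position of the ipsilateral oviduct. Of 18 genes of granulosa, cumulus and luteal cells 8 were higher and 10 lower, with a median of −0.09 that turned to 0.04 without PI1, PI4 and CI3. CYP11A1 was the highest of them (0.81) and HAS2, which makes the hyaluronan of the cumulus matrix, the lowest at 5.46 against 10.7 normalized counts (−0.75 ± 0.28, SE; −0.27 without PI1, PI4 and CI3). STAR, which brings cholesterol into mitochondria for steroid synthesis, ran from 19.3 over 48.6 to 57.0 ipsilaterally and from 17.9 over 36.1 to 68.5 contralaterally, a difference of 0.22 ± 0.19 (0.11 without PC2). CYP19A1, the aromatase of granulosa cells, lay between 0 and 43.2 against 1.08 and 69.1 normalized counts (−0.08 ± 0.37). The range of the mean log2 level of these 18 genes was 4.41 to 4.98 in the ipsilateral and 4.53 to 4.86 in the contralateral libraries.

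In the prostaglandin pathway 12 of 15 kept genes were lower and 3 higher ipsilaterally, with a median of −0.14 (−0.17 in pregnant and −0.11 in cyclic mares). The median was −0.23 without CC4 and −0.08 without PI1, PI4 and CI3, the ends of its range over the alternatives. The 3 with an unadjusted p under 0.05 were all lower. Among the synthases, PTGS1, the constitutive cyclooxygenase, ran from 4.69 over 9.27 to 17.4 normalized counts against 9.19 over 12.7 to 25 (−0.39 ± 0.17, SE). PTGS2, the inducible cyclooxygenase, averaged 14.0 against 14.8, with a difference of 0.00 and a 95% interval of −0.51 to 0.51. AKR1B1, an aldo-keto reductase that can make prostaglandin F2 alpha, was lower in 9 of 10 numbers, at 273 ± 77.2 against 326 ± 76.5 normalized counts (SD, n = 10; −0.27 ± 0.12, SE). PTGES, a synthase of prostaglandin E2, averaged 7.53 against 8.82, near the floor. Among the receptors, PTGER4, which raises cyclic AMP on binding prostaglandin E2, had 134, 253 and 537 against 158, 421 and 446 normalized counts (lowest, median, highest), a difference of −0.39 ± 0.18 (SE; limma unadjusted p = 0.0383, adjusted p = 0.876). In 8 of the 10 contralateral libraries PTGER4 was at 374 or above, as it was in PI2 (537) and PI3 (429) of the ipsilateral ones, so the sides overlap. PTGER2, the other receptor that raises cyclic AMP, differed by 0.05 ± 0.10.

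Secretory cell markers were split, 7 higher and 8 lower of 15, with a median of −0.04, but 3 members had an unadjusted p under 0.05 and all 3 were higher. PAX8, a transcription factor of Müllerian secretory cells, had 1560.1, 1834 and 2491 normalized counts ipsilaterally and 1410.3, 1679 and 2149 contralaterally, a difference of 0.18 ± 0.08 (SE; limma unadjusted p = 0.0457, adjusted p = 0.876) seen in 6 of 10 numbers. Its relative PAX2 ran from 396 over 622 to 1120.2 against 375 over 507 to 698, a difference of 0.31 ± 0.13 in 9 of 10 numbers. CI3 and PI5 were the highest PAX2 libraries, and only in cyclic number 4 was the contralateral value, 650, above the ipsilateral one, 560. Without CI3 the PAX2 difference was 0.20. OVGP1 was near the floor on both sides (6.16 against 3.52 normalized counts). WFDC2, a protease inhibitor secreted by oviduct epithelium, was at 3589 ± 1642 against 2873 ± 1195 (SD, n = 10), higher in 9 of 10 numbers, with a difference of 0.28 ± 0.20 (SE; 0.17 without CI4). The secretory median was 0.07 without CC1, so its sign was not fixed.

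Transcription factors that lay down position along the reproductive tract, among them HOX, PAX and MEIS genes, were higher in 19 of 25 kept members, with a median of 0.12 (0.14 in pregnant and 0.05 in cyclic mares). The list's median was higher in 8 of 10 numbers and stayed between 0.05 and 0.17 over the alternatives, and 2 members, PAX2 and PAX8, had an unadjusted p under 0.05. In the WNT pathway, which maintains oviduct epithelium, 13 genes were higher and 22 lower of 35 (median −0.06). WNT2B and WNT7B, both ligands, were lower at an unadjusted p under 0.05 (WNT7B at 23.8 against 30.9 normalized counts, −0.37 ± 0.16, SE). LEF1, a transcription factor that WNT signals switch on, was at 83.3 against 67.8 (0.33 ± 0.13) and higher in 7 of 10 numbers. The related factors TCF7 (0.17 ± 0.13), TCF7L1 (0.25 ± 0.16) and TCF7L2 (0.14 ± 0.11), taken up here after their values were seen, did not pass either threshold.

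Ciliary genes were nearly level between the sides. Of 42 multiciliated cell markers 20 were higher and 22 lower, with a median of −0.01, and none had an unadjusted p under 0.05. FOXJ1 had 3448, 3973 and 6344 normalized counts ipsilaterally and 2774, 4591 and 6097 contralaterally, a difference of −0.06 with a 95% interval of −0.26 to 0.14. For the ciliary dynein DNAH5 the interval was −0.21 to 0.14. Genes of ciliary signalling and planar polarity had a median of 0.01 (10 higher, 10 lower). Ion channels and transporters of fluid secretion were higher in 10 and lower in 20 of 30, with a median of −0.04. CFTR, the chloride channel of oviduct fluid secretion, differed by −0.04 (95% interval −0.26 to 0.17). SCNN1G, a subunit of the sodium channel that takes fluid up, was the 1 member of this list with a small unadjusted p, at 5.91, 17.8 and 34.2 against 5.20, 9.98 and 19.8 normalized counts (0.61 ± 0.21, SE; limma unadjusted p = 0.00787, adjusted p = 0.876), higher in 8 of 10 numbers.

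**Figure D3:**
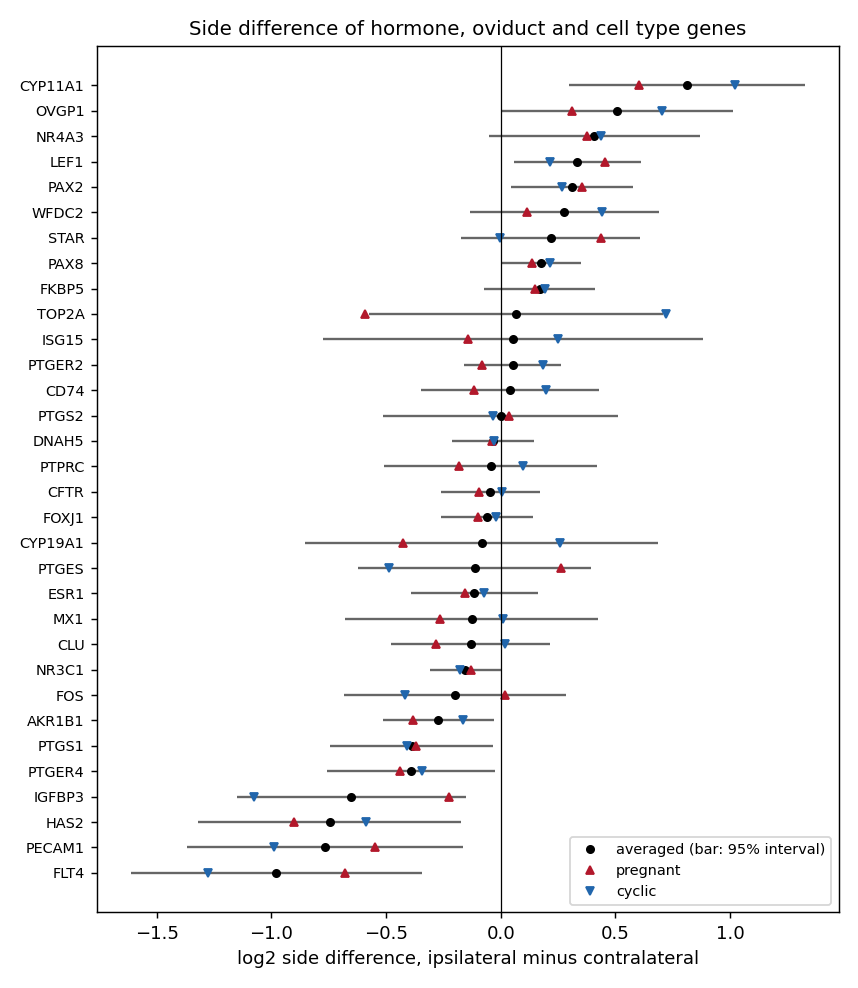
Averaged log2 side difference (black points, bars for the 95% interval) of 32 genes for hormone signalling, oviduct function and other cell types, with the difference in pregnant mares (red triangles) and in cyclic mares (blue triangles). Most bars cross 0, the widest ones belong to interferon, aromatase and proliferation genes, and TOP2A has its triangles at −0.59 and 0.72.

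Endothelial markers had the lowest median of the 42 lists with at least 5 kept members. Of 22 members 17 were lower and 5 higher ipsilaterally, with a median of −0.27 (−0.22 in pregnant and −0.29 in cyclic mares), and 2 had an unadjusted p under 0.05. FLT4, the receptor of lymphatic vessels for vascular endothelial growth factors, had 1.93, 7.41 and 32.8 normalized counts ipsilaterally against 7.76, 21.7 and 45.8 contralaterally, a difference of −0.98 ± 0.30 (SE). PI1 (32.8), CI4 (19.2) and CI5 (17.1) were high ipsilateral libraries, and only 6 of 10 numbers were lower. PECAM1, an adhesion molecule of endothelial cells, ran from 5.40 over 29.8 to 42.4 against 17.9 over 53.0 to 91.6, a difference of −0.77 ± 0.29 in 7 of 10 numbers. The lowest FLT4 and PECAM1 values fell within the range of the counting floor, 1.75 to 7.03 normalized counts. FLT4 had from 2 to 44 reads a library. In such bulk samples fewer cells of a type and less RNA per cell cannot be told apart. The mean log2 level of the 22 markers lay between 4.15 and 5.00 in the ipsilateral and 4.38 and 5.43 in the contralateral libraries, and the list's median stayed between −0.39 and −0.19 over the alternatives.

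Other cells beneath the epithelium showed smaller differences. Smooth muscle and pericyte markers were lower in 13 of 18 (median −0.11), with MYH11, the smooth muscle myosin, at 126, 194 and 567 against 132, 239 and 1380 normalized counts (−0.51 ± 0.30, SE). The MYH11 difference was −0.26 without PC3 and −0.32 without CC2. Stromal fibroblast markers were lower in 16 of 26 (median −0.04), and 1, the matrix protein FBLN2, had an unadjusted p under 0.05 (−0.57 ± 0.25, lower in 9 of 10 numbers). The stromal median was 0.16 without PI1, PI4 and CI3 and −0.27 with library weights, so its direction was not fixed by these data. IGFBP3, a binding protein of insulin-like growth factors, ran from 11 over 18.9 to 40.8 against 12.6 over 27.2 to 81.6, a difference of −0.65 ± 0.24 (limma unadjusted p = 0.0131, adjusted p = 0.876). CC1, CC2 and CC3, at 59.8 to 81.6, were above all other libraries, and the difference was −1.08 in cyclic and −0.23 in pregnant mares (interaction in limma, unadjusted p = 0.0906, adjusted 1). Mesothelial markers (8 kept) had a median of −0.16 and endometrial gland markers (6 kept, 6 lower) one of −0.17, which were −0.07 and −0.04 without PI1, PI4 and CI3.

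Immune genes showed no common direction of the side difference. Of 49 interferon-stimulated genes 30 were higher and 19 lower, with a median of 0.04, made of −0.17 in pregnant and 0.23 in cyclic mares. ISG15, a ubiquitin-like antiviral modifier, ran from 16.1 over 36.9 to 381 ipsilaterally and from 13.4 over 39.3 to 461 normalized counts contralaterally, and its difference of 0.05 had a 95% interval of −0.77 to 0.88. T and NK cell markers had a median of 0.02 (16 higher, 11 lower), B and plasma cell markers 0.07 (7 and 4), and macrophage and dendritic cell markers −0.10 (5 and 14). None of these 49, 27 and 11 genes of the interferon, T and NK and B cell lists had an unadjusted p under 0.05, and 1 macrophage and dendritic cell gene did, the chemokine receptor CCR7 (0.39 ± 0.19, SE; 11.8 against 8.44 normalized counts). MHC class I presentation was lower in 13 of 15 (median −0.15) and complement in 12 of 14 (median −0.09), while MHC class II split 7 to 7 (median −0.07). The medians of these lists had opposite signs in the statuses. In pregnant and cyclic mares they were −0.31 and 0.04 for MHC class I, −0.24 and 0.07 for complement and −0.28 and 0.05 for MHC class II. Macrophage and dendritic cell markers had −0.21 and 0.05. In cyclic mares 9 MHC class I and 10 complement genes were higher. Cyclic number 1 stood apart, with list medians of 1.5 for interferon-stimulated genes, 1.6 for T and NK markers and 1.00 for complement, against −0.69 to 0.21, −0.87 to 0.52 and −0.59 to 0.18 in the other 9 numbers. Without CI1 the averaged medians were −0.11, −0.14 and −0.17, and without PI5 they were 0.18, 0.11 and 0.01, so the direction in each of the 3 lists turned with a single library. Without PI1, PI4 and CI3 the interferon median was −0.12. The MHC class I median was also 0.01 without PI5, and over the alternatives it ran from −0.24 to 0.01; the macrophage and dendritic cell median ran from −0.18 to −0.000219.

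Proliferation genes, which mark dividing cells, had medians of opposite sign in the statuses. The averaged median of 39 members was 0.07 (27 higher, 12 lower), made of −0.36 in pregnant and 0.52 in cyclic mares, and none had an unadjusted p under 0.05 for the averaged difference. TOP2A, a topoisomerase of dividing cells, was at 102 to 1003 normalized counts in PI and 225 to 1728 in PC, and at 158 to 509 in CI and 64.6 to 318 in CC. The difference was −0.59 in pregnant and 0.72 in cyclic mares (interaction in limma, unadjusted p = 0.0456, adjusted 1). PI5 (102) and CC1 (64.6) were low, PC4 (1728) was high, and the groups overlap in both statuses. Per number the list's median ran from −0.77 in pregnant number 2 to 1.51 in cyclic number 1, and the averaged median ran from −0.11 without CC1 to 0.32 without cyclic numbers 3 and 4. It was −0.02 without CI1, −0.01 without PI1, PI4 and CI3, 0.17 without PI5 and 0.21 without CI4 and CC4.

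Several lists of genes that nearly all cells express were lower in almost every member for the averaged difference. Cytoplasmic ribosomal proteins were lower in 41 of 41 (median −0.25), nuclear-encoded respiratory chain genes in 38 of 38 (−0.18), antioxidant and glutathione enzymes in 27 of 31 (−0.19), endoplasmic reticulum folding genes in 24 of 28 (−0.15) and glycolysis genes in 28 of 33 (−0.11). In pregnant and cyclic mares the medians were −0.29 and −0.21 for ribosomal, −0.34 and −0.04 for respiratory and −0.28 and −0.08 for antioxidant genes. They were −0.26 and −0.06 for endoplasmic reticulum and −0.17 and −0.02 for glycolysis genes. Only 24 of the 38 respiratory genes were lower in cyclic mares. None of the ribosomal and respiratory genes had an unadjusted p under 0.05. RPS13, a protein of the small ribosomal subunit with the smallest p of its list, ran from 312 over 1134 to 4209 ipsilaterally against 489.8 over 1949 to 7372 normalized counts contralaterally, a difference of −0.60 ± 0.39 (SE; limma unadjusted p = 0.136, adjusted p = 0.876). PI1, PI5 and CI3 were its low ipsilateral libraries and CC2 was the highest of all. Transcripts encoded by the mitochondrial genome had the opposite sign, 12 of 13 higher with a median of 0.13 (0.02 in pregnant and 0.25 in cyclic mares).

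These lists moved with single libraries. Without PI1, PI4 and CI3, in which ENSECAG00000014226 took over 10% of the reads, the ribosomal median was 0.00, the respiratory median −0.06, the antioxidant median −0.07, the endoplasmic reticulum median −0.05, the glycolysis median −0.04 and the mitochondrial median −0.10. These 3 libraries also had the lowest read totals of the ipsilateral side (2795168 in PI1, 4415169 in PI4 and 3856941 in CI3). With all libraries and log2 reads as a covariate, the ribosomal median was −0.14 and the mitochondrial one 0.01. Whether read depth or the leading feature moved the lists was not tested. Without CI3 alone the ribosomal median was −0.10 and the mitochondrial one −0.04, and the RPS13 difference was −0.35. Without those 3 libraries the difference was nearer to 0 by over 1.5 times in several genes named above. Among the lower genes it was −0.25 for PTGER4, −0.25 for PTGS1, −0.16 for AKR1B1, −0.29 for LPCAT2, −0.01 for ESR1 and −0.15 for RPS13. Among the higher genes it was 0.18 for PAX2, 0.11 for PAX8, 0.20 for LEF1, 0.34 for SCNN1G, 0.11 for STAR and 0.22 for CCR7. Per number the ribosomal median ran from −1.52 in cyclic number 3 to 1.16 in cyclic number 4, and in 36 of the 42 lists these same numbers, cyclic 3 and 4, had opposite signs. Without CI4 and CC4 the ribosomal median was −0.44 and the respiratory one −0.33; without all 4 libraries of cyclic numbers 3 and 4 they were −0.25 and −0.25. How much of these list differences belongs to the side was not tested. HMOX2, a heme oxygenase, and GPX7, a glutathione peroxidase of the endoplasmic reticulum, are the antioxidant genes of smallest p. HMOX2 was lower in 9 of 10 numbers, from 524 over 608 to 724 against 494 over 743 to 832 normalized counts (−0.19 ± 0.08, SE). GPX7 was also lower in 9 of 10 (−0.38 ± 0.15; −0.25 without the 3 libraries).

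**Figure D4:**
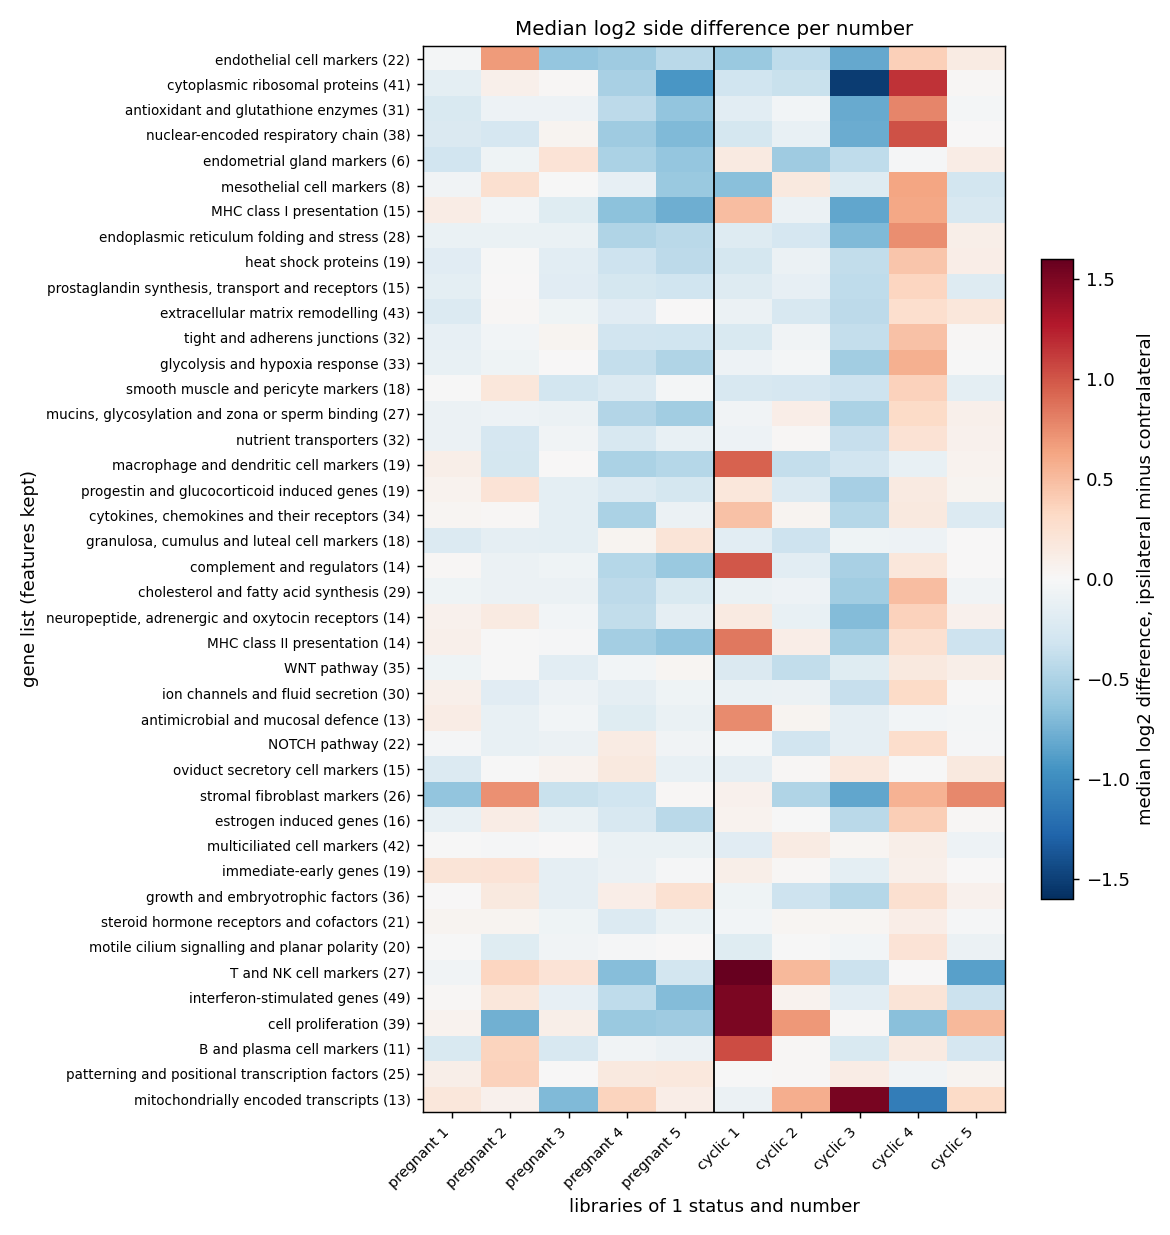
Median log2 difference, ipsilateral minus contralateral, of each of 42 gene lists (rows, number of kept features in brackets) in each status and number (columns), blue for lower and red for higher ipsilaterally. Cyclic numbers 3 and 4 are of opposite colour in 36 lists, and no list has 1 colour in all 10 columns. Cyclic number 1 is dark red in the interferon-stimulated, T and NK cell and proliferation rows and paler red in the other immune rows.

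Over the 42 lists the medians ran from −0.27 to 0.13, with 34 lower and 8 higher, and 25 were within 0.1 of 0. Called members numbered 0 in every list. In all, 971 distinct features stood on a list and 38 of them (3.91%) had an unadjusted p under 0.05, beside 2.97% of all features tested. In 23 lists the median was lower in both statuses, in 4 it was higher in both, and in 15 the statuses had opposite signs.

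The count of features at a small unadjusted p depended on which libraries entered, whereas the count of calls did not. All 35 alternative settings gave 0 calls for the averaged difference, with a smallest adjusted p of 0.123 with library weights. Without CC4 2954 features had an unadjusted p under 0.05 and without CI4 2259, against 243 without PC4. Scaling to the column total without TMM changed the split of directions to 76 higher and 556 lower, and moved the median of all features from −0.01 to −0.07. A filter at 5 CPM gave 76 higher and 219 lower, and no filter 382 higher and 296 lower.

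**Figure D5:**
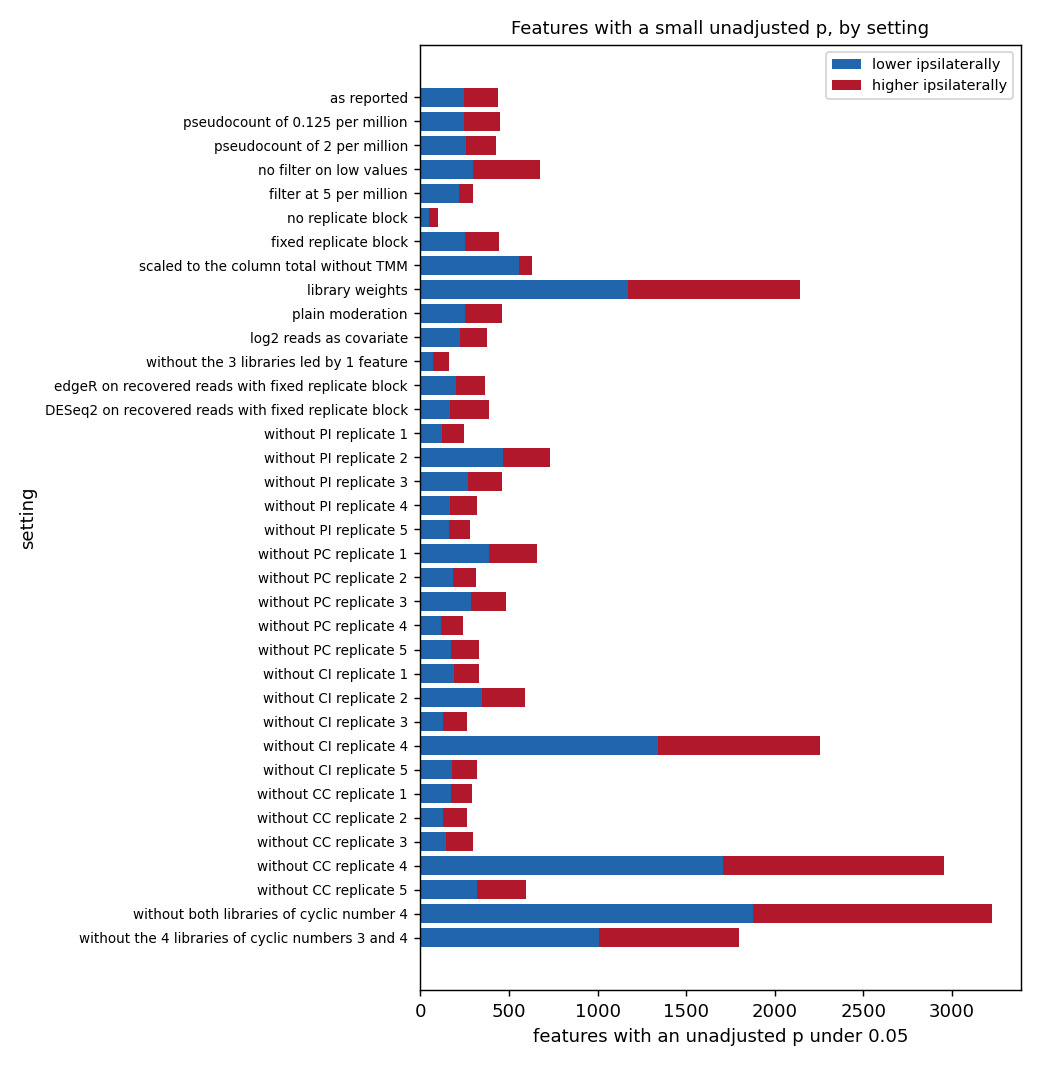
Number of features with an unadjusted p under 0.05 for the averaged side difference under each setting, stacked as lower (blue) and higher (red) ipsilaterally. The analysis as reported gave 437, the settings without CC4, without CI4, without both, without cyclic numbers 3 and 4 and with library weights gave 1797 to 3227, and none gave a call after adjustment.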

How the data were processed

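The values that the authors deposited are a signal, read counts per gene after TMM normalization, with 1 scaling factor a library. In each column the deposited values were whole multiples of the smallest, so whole reads were recovered (100% of values whole within 0.01 reads). CASAVA 1.8 is given per the submitters' processing notes; aligner, counter, strand setting and build: not given in the sources used here. Overlapping and antisense genes and near-identical copies are therefore uncertain. A stranded total RNA kit with ribosomal RNA depletion was used per the labels' protocols, while another label gives polyA RNA. Groups were taken from the sample titles. Features above 1 CPM of the column total in at least 5 of 20 columns were kept, and log2 of the deposited value plus 0.5 CPM (3.03 normalized counts) was taken; differences of weakly expressed genes shrink on that scale. A linear model in limma (3.58.1, under R 4.3.3) held 4 group means, status plus number as a random block, moderation with trend and robust, and Benjamini-Hochberg adjustment at 0.05, and gave 2-sided tests and 95% intervals. The averaged contrast, the contrast within each status and their interaction came from that model. The procedure was run on simulated data in which the libraries of every number shared a deviation, unlike cyclic numbers 3 and 4 in the real data. That run therefore does not show what the fit could detect here. Genes were named by rule: per direction the 10 symbols of smallest p, 24 genes of interest (22 kept), and for each of 44 lists its called members or else the 2 of smallest p; others are said to be chosen later or fill a count. The values of 1 gene that the rule picks are not reported here. Lists were matched by symbol, 27 members through older symbols in the RefSeq gene table, and described by counts and medians without a test. The comparison, genes and lists were chosen with earlier results of these data known. Alternatives changed the pseudocount, filter, block, scaling, moderation, weights, a read-depth covariate and the libraries used, and edgeR 4.0.16 and DESeq2 1.42.0 were run on the recovered reads with status and number as a fixed block. The reads of every 2 libraries differed beyond sampling noise (chi-square over degrees of freedom from 4.93 to 199.9 in 190 pairs), so no 2 are copies of the same reads. This check cannot show that the libraries came from separate animals.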

Additional observations from a re-analysis of the deposited data

Results flagged for a closer look

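Among the 115 named genes, each of the 4 groups of 5 libraries was searched for a library whose gap to its nearest neighbour exceeded 0.71 of the group's range (Dixon's 95% limit). This picked out 19 of 460 groups (4.13%); chance alone flags about 1 in 20 groups. In PC1, PPIL1 was low at 64.6 normalized counts (the other PC libraries 86.4 to 97.1), SNRNP27 low at 129, FKBP5 low at 372 and SCNN1G high at 14.0. In PC4, PTPRC was high at 704 and the T cell gene TRAT1 high at 39.2, while the collagen COL12A1 was low at 160 and the junction protein CLDN12 low at 33.9. In PI1, ESR1 was low at 1069 (the others 1901 to 2118), the interferon-stimulated gene IFI27 low at 21.1 and the respiratory gene NDUFA10 low at 101. In PI2, BCKDHB was high at 210 and the ribosomal gene RPS14 high at 4518.

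In the cyclic groups, CI3 was high in the mitochondrially encoded genes ATP6 (22678) and MT-CO2 (37592), and CI1 high in CD74, the MHC class II invariant chain (58488, the others 18043 to 19400). CC4 was high in OVGP1 at 11.7. CC1 was low in TOP2A at 64.6 and CC5 low in PTGES at 2.30.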

How the results depend on the processing

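Calls stayed at 0 for the averaged difference, for each status and for the interaction in all 35 alternatives, 33 planned and 2 added after the data were seen; the smallest adjusted p was 0.0795 (pregnant mares, plain moderation). The averaged unadjusted count was 451 and 424 with a smaller pseudocount and with 2 CPM, 678 without a filter, 295 with a filter at 5 CPM, 632 without TMM, 2144 with library weights, 463 with plain moderation, 378 with log2 reads as a covariate and 162 without PI1, PI4 and CI3. Leaving out 1 library gave 243 (without PC4) to 2954 (without CC4); it moved the count over 1.5 times upward without CC4, CI4 (2259), PI2 (732) or PC1 (660), and downward without PC4, PI1 (247), CC2 (261), CI3 (262), PI5 (282) or CC1 (291). The added settings, without CI4 and CC4 and without cyclic numbers 3 and 4, gave 3227 and 1797. The cause was not tested.

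Labels do not say that equal numbers mark 1 mare. Libraries of 1 number deviated together in pregnant mares (correlations 0.53 to 0.70, 5 of 5 closest to their own number) but not in all cyclic ones (−0.04 to 0.68, 3 of 5 closest). The numbers are therefore not taken to mark 1 mare, and counts over the numbers only describe libraries of equal number. The random block (correlation 0.39) was kept as part of the comparison. Without the replicate block 100 features had an unadjusted p under 0.05, with a fixed replicate block 441, and calls were 0 in both.

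All named genes not given here kept their direction. Directions turned for genes near 0: PTGS2 (−0.0112 with a pseudocount of 2 CPM, −0.056 without TMM, −0.059 with the read covariate), PTGER2 (−0.0123), CD74 (−0.0265) and ISG15 (−0.00928) without TMM, DNAH5 (0.0395) and PTPRC (0.048) with library weights, and PTPRC with the read covariate (0.00649). Without PI1, PI4 and CI3 the values were −0.18 for PTGS2, 0.0337 for PTGES, 0.019 for CFTR, −0.0600 for CD74, −0.21 for ISG15, 0.0541 for PTPRC, −0.0203 for TOP2A, 0.23 for CYP19A1 and −0.0249 for MT-CO2. Without CI4 and CC4, PTGER2 was at −0.0199 and PTPRC at 0.0283; without cyclic numbers 3 and 4, PTPRC was at 0.21 and CYP19A1 at 0.13. Leaving out 1 library gave ranges of −0.12 to 0.14 for CD74, −0.32 to 0.12 for CYP19A1, −0.0668 to 0.00475 for DNAH5, −0.17 to 0.27 for ISG15, −1.78e-05 to 0.28 for MT-CO2, −0.24 to 0.0597 for MX1, −0.025 to 0.11 for PTGER2, −0.12 to 0.16 for PTGS2, −0.24 to 0.0833 for PTPRC and −0.14 to 0.22 for TOP2A. Read depth limits genes near the floor: the median SE was 0.20 for features under 100 normalized counts and 0.11 above.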

Other observations

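Further gene groups had median side differences between −0.14 and 0.00, with no member past the adjusted threshold in limma. Without PI1, PI4 and CI3 the medians were −0.03 for tight and adherens junctions, −0.01 for nutrient transporters, −0.02 for mucins and glycosylation and −0.04 for matrix remodelling. Without CI3 alone the junction and matrix medians were −0.07 and −0.06. Genes of mucins, glycosylation and sperm or zona binding were lower in 21 of 27 (median −0.10), with 1, the galactosyltransferase B4GALT1, at an unadjusted p under 0.05 (400 against 481 normalized counts, −0.28 ± 0.13, SE). The list's median was −0.21 in pregnant and −0.01 in cyclic mares. Tight and adherens junction genes were lower in 22 of 32 (median −0.12), among them the adhesion molecule F11R, which ran from 758 over 946 to 1129 against 753 over 1095 to 1267 normalized counts (−0.17 ± 0.08). Cholesterol and fatty acid synthesis genes were lower in 23 of 29 (median −0.08), among them EBP, a sterol isomerase, at an unadjusted p under 0.05 (−0.30 ± 0.13). The median of these synthesis genes was −0.17 in pregnant and −0.02 in cyclic mares. Heat shock genes were lower in 14 of 19 (median −0.14) and extracellular matrix remodelling genes in 28 of 43 (median −0.12). In the matrix list 2 members were higher and 2 lower at an unadjusted p under 0.05. The lower ones were HAS2, which makes hyaluronan (−0.75 ± 0.28), and the matrix glycoprotein TNC (−0.53 ± 0.21), and the higher ones the proteases ADAMTS3, near the floor at 8.74 against 4.96 normalized counts (0.52 ± 0.20), and ADAMTS9 (0.34 ± 0.15). TNC and ADAMTS9 fall outside the naming rule and were chosen after their values were seen. Without PI1, PI4 and CI3 the differences were −0.15 for B4GALT1, −0.10 for F11R, −0.27 for HAS2 and 0.31 for ADAMTS3.

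Nutrient transporters were lower in 22 of 32 (median −0.10, with −0.20 in pregnant and −0.02 in cyclic mares). SLC15A2, a peptide transporter, was at 116 against 156 normalized counts (−0.33 ± 0.15, SE) and SLC2A4, the insulin-responsive glucose transporter, near the floor at 7.31 against 4.51 (0.41 ± 0.19). Growth and embryotrophic factors were split, 17 higher and 19 lower of 36 (median 0.00), with the cytokine LIF at 6.88 against 4.40 normalized counts (0.49 ± 0.24). NOTCH pathway genes had a median of −0.04 (10 higher, 12 lower), immediate-early genes one of −0.01 (8 and 11), and receptors for neuropeptides, adrenaline and oxytocin one of −0.08 (5 and 9). Cytokines and chemokines had a median of −0.09 (12 higher, 22 lower) and antimicrobial genes one of −0.04 (5 and 8). Their medians in pregnant and cyclic mares were −0.19 and 0.05 for cytokines and chemokines, and −0.07 and 0.03 for antimicrobial genes.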
